A study of Saccharomyces cerevisiae with 3 samples.

Results

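Transcripts of 9 classical stress genes of Saccharomyces cerevisiae, budding yeast, were followed in wild-type cells given 0.2 mM arsenite for 1 h and in untreated wild-type cells. The genes were DDR2, DDR48, HOR7, GRE1, SIP18, STF2, SPI1, YGP1 and MSC1, taken as a fixed list of hydrophilins and stress-induced surface proteins outside the chaperones and antioxidant enzymes. All 9 were found by gene symbol in the platform annotation, with 18 spots between them, among 5539 named genes. The cells compared were, first, wild type under As(III) stress and, second, wild type without stress. The labels name no strain, mating type, medium or growth stage, and 1 dose and 1 time were measured.

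The data were 3 two-colour microarrays, on each of which RNA of arsenite-treated and of untreated cells competed for the same spots, and each array thus yields 1 ratio of treated to untreated RNA for every gene. Per the labels, treated RNA was dyed with Cy5 on replicates 1 and 2, whereas on replicate 3 it was dyed with Cy3. The sign of replicate 3 was therefore turned, and every array was centred on its median. YGP1 shows what this did: its deposited values were 3.20, 4.15 and -3.14, and its turned and centred values were 3.27, 3.61 and 3.26. Over all spots the deposited column of replicate 3 ran opposite to replicate 1 (r = -0.782) and to replicate 2 (r = -0.613). Values below are log2 ratios of treated over untreated cells. This direction is likely and not stated by the labels: it reads the ratio as Cy5 over Cy3. The labels also do not say whether the authors turned replicate 3, but its negative correlations show a sign opposite to replicates 1 and 2. The logarithm was read as base 2. With a natural logarithm each log2 ratio would be 1.44 times as large and no test would change. The fold changes given below would then be larger, and counts at 2-fold could rise. GRE1, for example, would have 1.02 in place of 0.71 and so be past 2-fold. Nothing in the labels says whether the arrays came from separate cultures, so p-values measure at most the spread between these arrays. In the main fit each gene's variance was drawn largely from all genes, with 9.91 prior against 2 residual degrees of freedom. Its p-values and SEs therefore reflect a gene's own spread only in part. In the fits without replicate 1, without replicate 3, without centring and with a dye effect, all genes shared 1 variance. The p-values of those fits do not use a gene's own spread. In RNA from a whole culture, a change in a few cells and a smaller change in all cells cannot be told apart.

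Hydrophilins are small, strongly hydrophilic, glycine-rich proteins that remain soluble when water is scarce, and several of them help yeast survive drying. DDR2, DDR48 and HOR7 were named for their induction by DNA damage or high osmolarity, and SPI1 and YGP1 encode glycoproteins of the cell surface. Many of these genes belong to the general stress programme, in which the zinc finger factors Msn2 and Msn4 bind stress response elements in promoters once protein kinase A activity drops.

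In arsenite-treated cells 8 of the 9 genes rose and 0 fell, by limma's moderated test with Benjamini-Hochberg adjustment over all genes and a threshold of 0.05; at an unadjusted p under 0.05 the counts were likewise 8 and 0. Across the array 13.3% of genes rose and 18.8% fell. At an unadjusted p under 0.05, 1046 of the 5539 genes were higher and 1279 lower. All 9 genes lay above 0 on all 3 arrays, as did 27.6% of all genes. Of the 9, 6 rose at least 2-fold, against 5.09% of all genes. The median of the 9 means was 1.42, beside -0.017 over all genes. By their means the 9 genes fell into 3 ranges of response: YGP1, DDR48 and STF2 were 6.36-fold to 10.4-fold higher, MSC1, DDR2 and HOR7 were 2.49-fold to 2.99-fold higher, and GRE1, SPI1 and SIP18 lay between 1.25-fold and 1.63-fold. The lower 2 ranges overlapped on replicate 2. The number that rose was 6 without replicate 1 (7.11% of all genes) and 6 without replicate 3 (14.4%), GRE1 and SPI1 not passing in either fit, and 7 without centring (10.9%), when SPI1 did not pass.

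**Figure D1:**
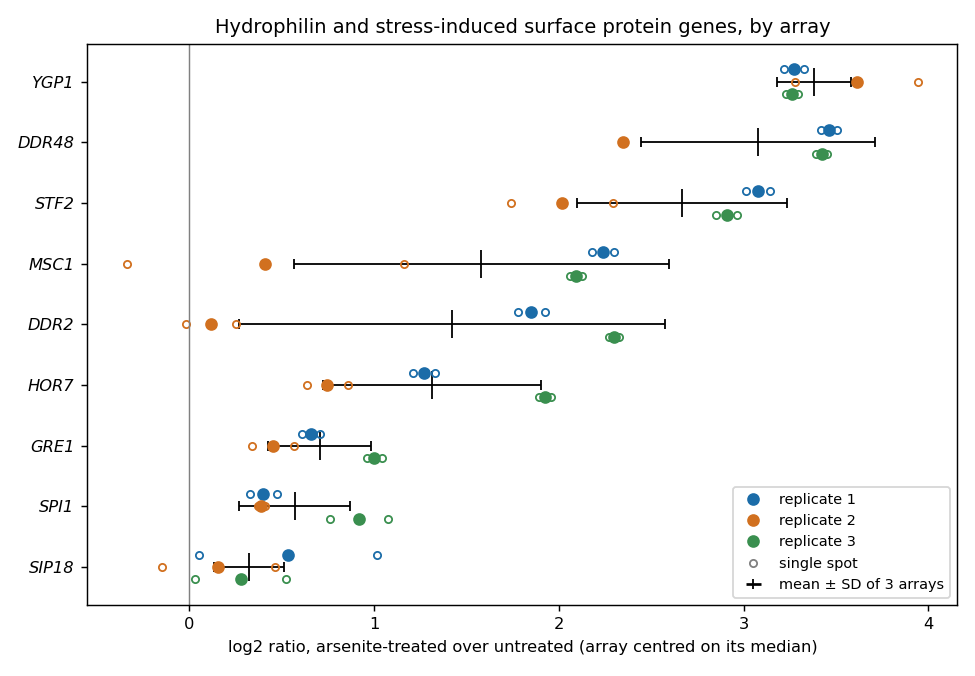
Log2 ratio of arsenite-treated over untreated cells (x axis) for each of the 9 genes (y axis, ordered by mean). Filled points are the 3 arrays, open points the 2 spots of a gene on each array, and the black bar is the mean ± SD over arrays. YGP1 has its 3 arrays between 3.26 and 3.61, whereas the replicate 2 values of DDR2 (0.12) and MSC1 (0.41) lie far below those of the other arrays, and the 2 spots of SIP18 lie apart on every array.

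YGP1 (YNL160W), a secreted glycoprotein of the cell wall that is made when nutrients run out, had the highest mean of the group. Its log2 ratios were 3.27, 3.61 and 3.26 on replicates 1, 2 and 3. The arrays differed little, and all of them put the gene among the 27 highest of the 5539. Its 2 spots on replicate 2 read 3.94 and 3.28, a gap of 0.66 beside 0.11 and 0.061 on replicates 1 and 3. The mean was 3.38 ± 0.20 (SD, n = 3), a 10.4-fold rise (SE 0.18, limma adjusted p = 1.89e-07), and 12 genes had a higher mean. The 3 genes outside the list with values nearest to it over the 3 arrays were AAD3, AAD10 and ECM4, at Euclidean distances of 0.42, 0.45 and 0.58; AAD3 and AAD10 are aryl-alcohol dehydrogenase genes, and ECM4 encodes a glutathione transferase. With 3 arrays of 1 condition, such nearness says only that the rises were of like size.

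DDR48 (YMR173W), a stress protein first identified by its induction on DNA damage, had 3.46, 2.35 and 3.42. Replicate 2 was lower than the other arrays, and its 2 spots there agreed to within 0.005. DDR48 rose 8.45-fold (3.08 ± 0.63, n = 3, SE 0.23, limma adjusted p = 2.60e-06). STF2 (YGR008C), a hydrophilin that acts on the inhibitor complex of the mitochondrial ATP synthase and protects cells during drying, had 3.08, 2.02 and 2.91. It showed the same order of arrays as DDR48 and rose 6.36-fold (2.67 ± 0.57, SE 0.22, limma adjusted p = 4.24e-06). The 2 spots of STF2 on replicate 2 read 2.30 and 1.74. DDR48 exceeded STF2 on all 3 arrays, by 0.41 ± 0.094, while YGP1 exceeded DDR48 on replicate 2 alone (0.30 ± 0.83), so the order of YGP1 and DDR48 is within their spread. STF2 in turn lay above MSC1, the next gene in the order, on all 3 arrays (1.09 ± 0.45).

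MSC1, DDR2 and HOR7 formed the middle of the group by their means, and MSC1 and DDR2 were the most variable between arrays. MSC1 (YML128C), a gene named for its effect on meiotic recombination between sister chromatids, had 2.24, 0.41 and 2.09. Replicates 1 and 3 were close together and replicate 2 was far lower. The 2 spots of MSC1 on replicate 2 read 1.16 and -0.34, far apart beside gaps of 0.12 and 0.067 on replicates 1 and 3. MSC1 rose 2.99-fold (1.58 ± 1.02, n = 3, SE 0.30, limma adjusted p = 0.00141), and 4.49-fold without replicate 2.

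DDR2 (YOL052C-A), a small protein of unknown function induced by many stresses, had 1.85, 0.12 and 2.30. Its rank by ratio among the 5539 genes was 85 on replicate 1, 2265 on replicate 2 and 57 on replicate 3. Its spots on replicate 2 read -0.016 and 0.25, so both were low there. DDR2 rose 2.68-fold (1.42 ± 1.15, SE 0.32, limma adjusted p = 0.00500), and 4.21-fold without replicate 2. Only 4 of the 5539 genes had a larger SD over arrays. The SE and p-value of DDR2 and MSC1 rest largely on the variance of all genes, and less on their own wide spread. HOR7 (YMR251W-A), the paralog of DDR2 and a gene that responds to high osmolarity, had 1.27, 0.75 and 1.92. It rose 2.49-fold (1.31 ± 0.59, SE 0.22, limma adjusted p = 0.000721). The means of MSC1, DDR2 and HOR7 differed from one to the next by 0.16 ± 0.32 and 0.11 ± 0.65, within the spread between arrays.

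GRE1, SPI1 and SIP18 had the smallest mean ratios. On replicate 2 alone DDR2 (0.12) lay below all of them, and MSC1 (0.41) lay below GRE1. GRE1 (YPL223C), a hydrophilin gene of the osmotic stress response, had 0.66, 0.45 and 1.00, which gave a 1.63-fold rise (0.71 ± 0.28, SE 0.19, limma adjusted p = 0.0120). Leaving out replicate 1 gave GRE1 a limma adjusted p of 0.102, and leaving out replicate 3 gave 0.05005. SPI1 (YER150W), a glycosylphosphatidylinositol-anchored wall protein linked to weak acid tolerance, had 0.40, 0.39 and 0.92. Replicates 1 and 2 were alike and replicate 3 higher, for a 1.48-fold rise (0.57 ± 0.30, SE 0.19, limma adjusted p = 0.0366). The SPI1 call was lost in 4 of the other fits, namely without centring (limma adjusted p = 0.0750), on its second spot alone (0.0573), without replicate 1 (0.155) and without replicate 3 (0.184), though its mean stayed between 0.40 and 0.69 in these fits.

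SIP18 (YMR175W), a phospholipid-binding hydrophilin needed for survival of drying and the paralog of GRE1, had 0.53, 0.16 and 0.28 and did not pass (0.32 ± 0.19, SE 0.18, limma adjusted p = 0.197). Its 2 spots disagreed on every array: the first read 0.0505, -0.15 and 0.030, and the second 1.01, 0.46 and 0.53. The gap between the spot means was 0.69, and of the 5510 genes with 2 spots 12 had a larger one; a single spot had an SD of 0.19, 0.22 and 0.20 on replicates 1, 2 and 3, from duplicates over the array. On the first spot alone SIP18 had -0.023 (limma adjusted p = 0.943), and on the second alone 0.67 (limma adjusted p = 0.0278). The table holds no intensities or flags, so which spot reads SIP18 better cannot be told from it. The genes nearest to the averaged values of SIP18 were IOC3, ADE13 and CTM1, at distances of 0.047, 0.075 and 0.089. None of these 3 passed the test, which follows from their choice by values like those of SIP18.

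Replicate 2 carried the lowest value of 8 of the 9 genes, YGP1 being the exception. Among the 735 genes that rose, 47.3% had their lowest value there. The medians of the 9 genes on replicates 1, 2 and 3 were 1.85, 0.45 and 2.09. This order depends on the scaling of the arrays: without centring, which leaves replicate 2 with its median of 0.54, it held 4 of the 9 lowest values (11.9% of the genes that rose in that fit), and with centring and equal spread it held all 9 (59.5%). DDR2, DDR48, STF2 and MSC1 were lowest on replicate 2 under each of these scalings. The median SD over arrays was 0.57 for the 9 genes, 0.27 for all genes that rose and 0.29 for all genes.

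**Figure D2:**
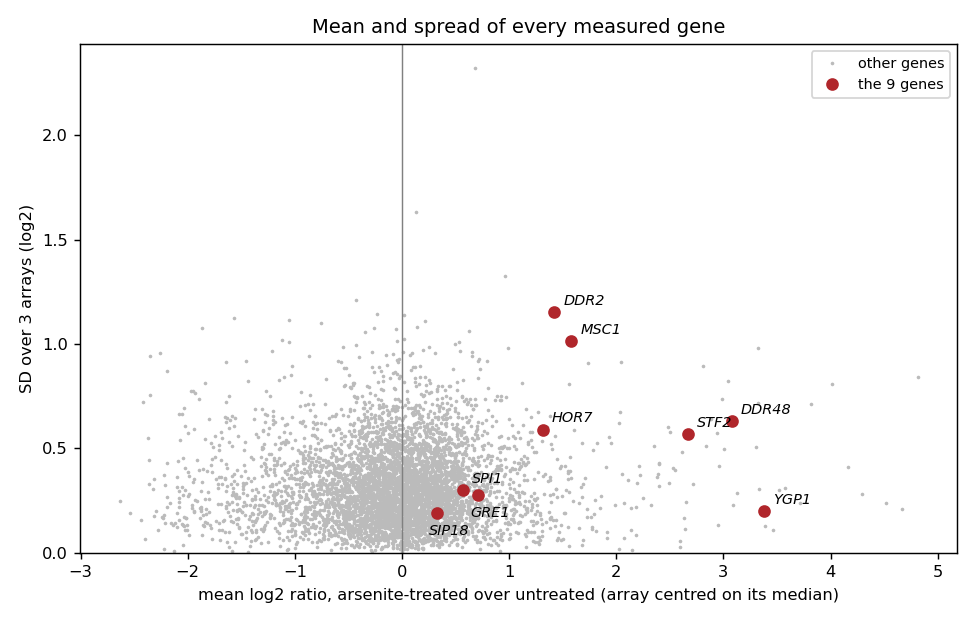
Mean log2 ratio over 3 arrays (x axis) against the SD over the arrays in log2 units (y axis) for every named gene in grey and the 9 genes in red. DDR2 (SD 1.15) and MSC1 (SD 1.02) lie near the top of the cloud, while YGP1 joins a mean of 3.38 with an SD of 0.20.

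Several of the 9 genes have a paralog, and 5 pairs were compared array by array, as the difference of their log2 ratios. YGP1 and SPS100, a spore wall gene, differed most: the differences were 2.68, 2.90 and 3.06, and SPS100 itself had 0.50 ± 0.27 and did not pass (limma adjusted p = 0.0557). SPS100 passed with centring on spots that have a gene symbol (limma adjusted p = 0.0453), on the median over gene means (0.0459) and without replicate 3 (0.0180). STF2 and TMA10, a ribosome-associated protein, had like ratios (difference -0.14 ± 0.44), and TMA10 rose by 2.81 ± 0.89 (limma adjusted p = 1.17e-05). DDR2 and HOR7 differed by 0.58, -0.63 and 0.37, with a change of sign on replicate 2.

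SPI1 lay above SED1, an abundant wall protein of stationary cells, on all 3 arrays (0.42 ± 0.23), and SED1 did not pass (0.15 ± 0.30, limma adjusted p = 0.575). SIP18 lay below GRE1 on all 3 arrays (-0.38 ± 0.31). An exact two-sided sign-flip permutation test on 3 arrays cannot go below p = 0.25; the YGP1, SPI1 and SIP18 pairs had p = 0.25 and the other two p = 1, or 0.417 and 1 when adjusted over the 5 pairs. The files do not describe the probes, so hybridisation shared by paralogs cannot be estimated, in particular for the short DDR2 and HOR7.

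Among other hydrophilins the ratios were spread widely. HSP12, a membrane-stabilising small heat shock protein of this class, had 4.40, 4.35 and 4.79 and rose by 4.51 ± 0.24 (limma adjusted p = 3.79e-08), more than any of the 9. The other 3 measured did not pass: ROQ1, a regulator of the ubiquitin ligase Ubr1, had 0.021, -0.050 and 1.66, so its mean of 0.54 rests on replicate 3, NOP6, a ribosome assembly factor, had -0.48 ± 0.45, and YNL190W, a hydrophilin of the cell wall, had -0.20 ± 0.42. With a dye effect in the fit ROQ1 passed (0.82, limma adjusted p = 0.000260) and NOP6 passed in the other direction (-0.52, limma adjusted p = 0.0302). That fit gives replicate 3 as much weight as replicates 1 and 2 together, so the larger ROQ1 mean rests still more on replicate 3. NOP6 also passed without replicate 2 (-0.73, limma adjusted p = 0.0117). INH1, the ATP synthase inhibitor whose complex STF2 stabilises, had -0.54, -0.82 and 0.61 and did not pass (limma adjusted p = 0.474), although it did without replicate 3 (-0.68, limma adjusted p = 0.0137).

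Other surface proteins are set here beside all genes, of which 13.3% rose and 18.8% fell. Of 18 measured wall proteins of the glycosylphosphatidylinositol-anchored and PIR classes, 1 rose and 2 fell, with a median of 0.031; over the other fits 1 to 3 rose and 0 to 4 fell. PST1, a wall protein made on cell wall damage, rose by 1.48 ± 0.42 (limma adjusted p = 0.000129). CWP2, an abundant mannoprotein, fell by 1.05 on the log2 scale (SD 1.01, limma adjusted p = 0.0168) with -1.14, -2.01 and -0.0006 on the 3 arrays, and CCW12, needed for wall stability, fell by 0.64 (SD 0.36, limma adjusted p = 0.0243). Without replicate 2 neither fall passed: CWP2 then had -0.57 (limma adjusted p = 0.119) and CCW12 -0.49 (0.0854). CCW12 had ratios nearer its full value, -0.59 without replicate 1 (limma adjusted p = 0.217) and -0.52 without centring (0.206), as did CWP2 on the last spot alone (-1.03, 0.0745), and these did not pass either. Of 6 small stress-related membrane proteins, 1 rose and 1 fell, with a median of 0.069, which is near the shares of all genes. HSP30, a negative regulator of the plasma membrane proton pump, rose by 0.92 ± 0.42 (limma adjusted p = 0.00382), and MRH1, its relative, fell by 0.56 (SD 0.29, limma adjusted p = 0.0376). The MRH1 call was lost without centring (limma adjusted p = 0.293), on the last spot alone (0.0565), without replicate 1 (0.306) and without replicate 3 (0.124), where its ratio was -0.45, -0.54, -0.51 and -0.45.

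Most stress genes listed as Msn2 and Msn4 targets rose. Of 23, HSP12 among them, 19 rose and 0 fell by limma, with a median of 1.73. Without replicate 3, 1 fell, beside 1112 of all 5539 genes. At an unadjusted p under 0.05, 20 of the 23 were higher and 1 lower. Among all genes 13.3% rose and 18.8% fell by limma. At an unadjusted p under 0.05, 1046 of the 5539 were higher and 1279 lower. Medians of this list on replicates 1, 2 and 3 were 1.72, 1.20 and 1.94, so replicate 2 was lowest here too. HSP12 rose most, followed by TFS1, an inhibitor of carboxypeptidase Y (3.05 ± 0.82), and CTT1, the cytosolic catalase (2.72 ± 0.33). The 4 that did not pass were UBI4, GSY2, HXK1 and TPS1, named after their values were seen, with means between -0.48 and 0.46. Of 5 targets of Haa1, the weak acid factor that also acts on YGP1 and SPI1, 0 rose and 0 fell by limma (median -0.0375): TPO2 had 0.10, TPO3 -0.20, YRO2 -0.0375, PHM8 0.46 and HRK1 -0.41. At an unadjusted p under 0.05, 1 was higher and 1 lower. With only 5 genes, these counts cannot be told from the shares of all genes. Of these 5, 1 rose when replicate 2 was left out or a dye effect was fitted, and 1 fell without replicate 3. Among all genes 798 rose without replicate 2 and 909 with a dye effect.

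**Figure D3:**
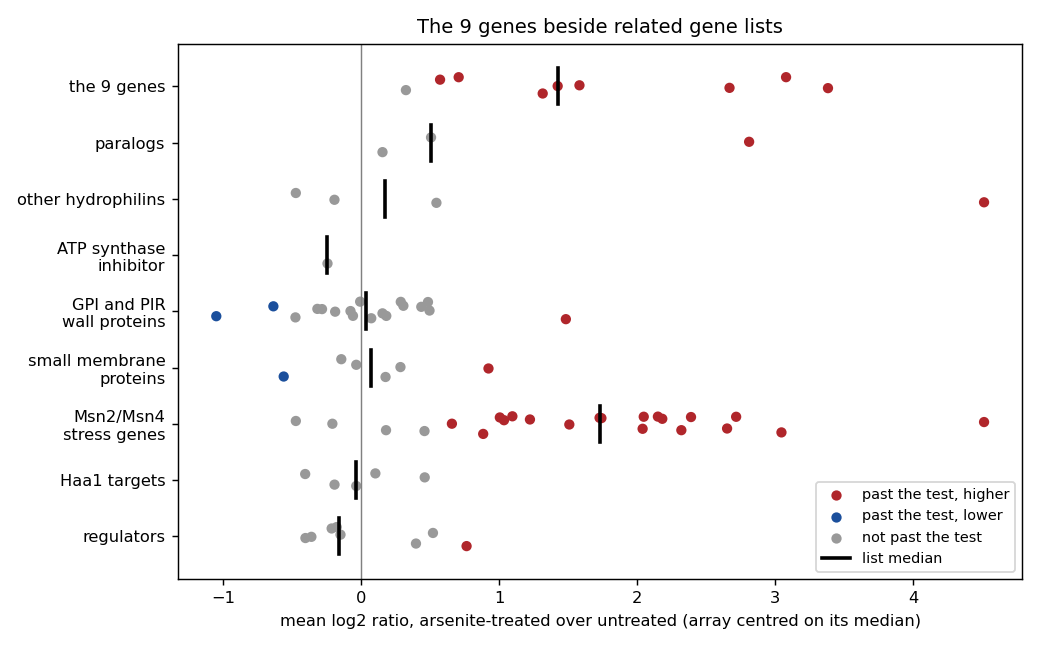
Mean log2 ratio (x axis) of each gene in the list of 9 and in related lists (y axis). Points are genes, coloured by the outcome of the limma test, and the black bar is the list median; the 9 genes (median 1.42) and the Msn2 and Msn4 stress genes (median 1.73) lie mainly right of 0, whereas the wall proteins (median 0.031) and Haa1 targets (median -0.0375) spread around 0.

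Of 8 regulators of these genes, 1 rose and 0 fell by limma, with a median of -0.17, and the share that rose is near the 13.3% of all genes. At an unadjusted p under 0.05, 2 were higher and 0 lower, beside 1046 and 1279 of all 5539 genes. YAP1, the factor of oxidative and metal stress, rose by 0.76 ± 0.10 (limma adjusted p = 0.00540), and had 0.81 without replicate 1, where it did not pass (0.0584). MSN2 had -0.18 ± 0.22 and MSN4 0.40 ± 0.31, HOG1, the osmotic stress kinase, had -0.36 ± 0.69, and the factors HOT1 and SKO1, which act under it, had -0.22 ± 0.45 and -0.41 ± 0.35. HAA1 had -0.15 ± 0.29 and HSF1, the heat shock factor, 0.52 ± 0.52. Without replicate 3, 3 regulators rose and 1 fell: MSN4 (0.57, limma adjusted p = 0.0430), HSF1 (0.80, 0.00306) and YAP1 were higher, and HOG1 was lower (-0.73, 0.00757). In that fit 14.4% of all genes rose and 1112 of the 5539 fell. With a dye effect in the fit SKO1 fell (-0.50, limma adjusted p = 0.0368), and on the first spot alone HSF1 rose (0.62, 0.0499).

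Most genes beside the 9 on the chromosome did not pass. The nearest measured gene on each side of the 9 gave 17 neighbours in the RefSeq order of the R64 assembly, of which 1 rose, 1 fell and 15 did not pass, with a median of 0.15. Across the array 32.1% of genes passed in either direction. PAI3, an inhibitor of proteinase A, stands between DDR48 and SIP18 and had 1.54, 0.63 and 1.23; it rose by 1.13 ± 0.46 (limma adjusted p = 0.00112). In that run of 3 adjacent genes the means were therefore 3.08 for DDR48, 1.13 for PAI3 and 0.32 for SIP18. SPE2, a decarboxylase of polyamine synthesis beside DDR2, had -0.89, -0.97 and -0.77 and fell (limma adjusted p = 0.00222). PAI3 and SPE2 were singled out after their values were seen.

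**Figure D4:**
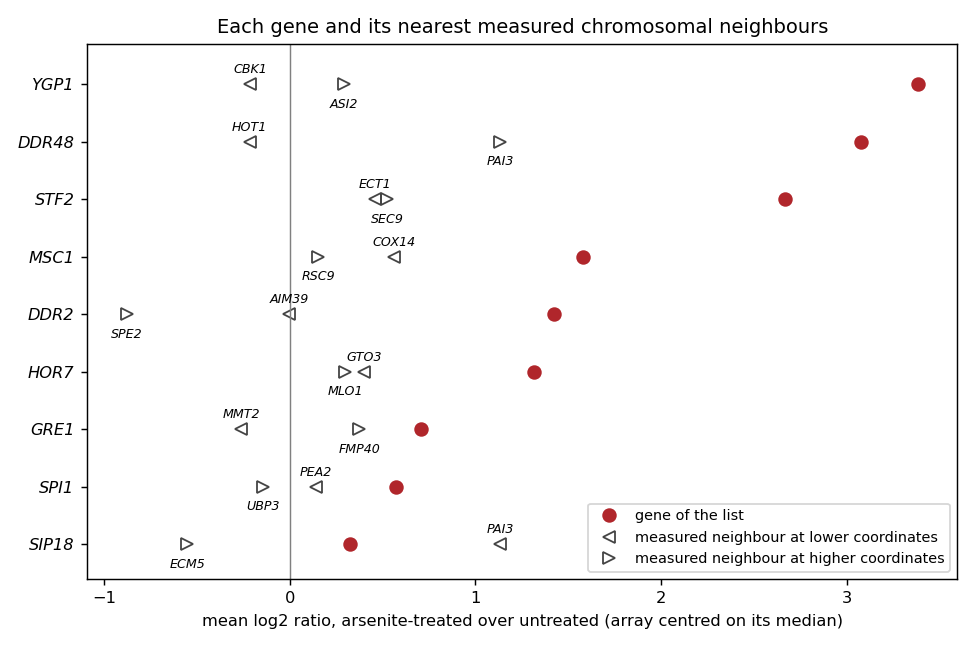
Mean log2 ratio (x axis) of each of the 9 genes (red points) and of the nearest measured gene on either side of it (open triangles), 1 row per gene. Only SIP18 lies below one of its neighbours, PAI3, which also neighbours DDR48; the remaining 8 genes lie to the right of both of theirs.

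Some genes that mark other states of a yeast culture passed too, and their part in the rises was not tested. Of all genes 13.3% rose and 18.8% fell, and 7.11% rose without replicate 1. Without replicate 3, 14.4% of all genes rose and 1112 of the 5539 fell. At an unadjusted p under 0.05, 1046 of the 5539 genes were higher and 1279 lower. All 6 stationary-phase markers rose, with a median of 1.17 and means from 0.56 to 2.53, and 3 of them did without replicate 1. One of these markers, HSP26, is also among the Msn2 and Msn4 stress genes. Of 10 sporulation markers, a list that includes SPS100, 3 rose and 0 fell by limma, or 5 and 1 at an unadjusted p under 0.05 (median 0.45, means from -0.50 to 1.95), and without replicate 3, 6 rose and 1 fell. Of 6 a-cell markers 0 rose and 3 fell by limma, or 1 and 5 at an unadjusted p under 0.05 (median -0.81, means from -1.27 to 0.42), and of 4 alpha-cell markers 1 rose and 1 fell (median -0.061, means from -0.64 to 1.67). The alpha-cell fall was lost without replicate 1, without replicate 2, without centring and on the last spot alone.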

How the data were processed

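Each of the 3 arrays gives 13056 values, which the authors deposited as log ratios of the 2 channels and which were read as log2; the sources used here give no scanner, background correction or normalization. Gene symbols came from the annotation of the array platform: 11138 spots have 1 gene symbol, 1918 have none, and 5534 of the 5539 genes matched RefSeq by gene ID. Replicate 3 was multiplied by -1 for its exchanged dyes, per the labels, each array was centred on its median over all spots, and the spots of a gene were averaged. Before centring, the turned medians were -0.07, 0.54 and -0.12, so the mean over all genes shifts by 0.12 without it. Each gene's mean ratio was set against 0 in limma 3.58.1, with lmFit and eBayes under R 4.3.3 (two-sided, 9.91 prior and 2 residual degrees of freedom), after a check on simulated data. Tables and figures used Python 3.11.15, pandas 2.3.3 and matplotlib 3.10.9.

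The members, lists and tests were chosen with earlier results of these data known. Named were all members, paralogs, other hydrophilins, ATP synthase inhibitors and regulators, and from each other list up to 3 genes past the test with the largest change; the Haa1 targets, of which none passed, and the neighbours fall outside this rule and were added once their values were known. STF1, SNA2 and YLR194C had no spot of that name and were not analysed here. The table holds no intensities, so no filter on dim spots was made, and the number of arrays limits the precision. The files state no genome build, and coordinates are left out.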

Additional observations from a re-analysis of the deposited data

How the results depend on the processing

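YGP1, DDR48, STF2, MSC1, DDR2 and HOR7 rose in each of the fits run: without centring, centred on named spots, scaled to equal spread, on either spot alone, with a dye effect, with a robust variance prior, with any 1 array left out, and centred on the median over gene means, the last chosen after seeing the data. The fits without replicate 1, without replicate 3, without centring and with a dye effect gave every gene 1 common variance. Their p-values therefore carry no spread of the single gene. DDR2 without replicate 3 rests on 1.85 and 0.12, yet had a limma adjusted p of 0.000172, against 0.00500 on all 3 arrays. GRE1 ranged from 0.56 to 0.83 with an array left out and SPI1 from 0.40 to 0.66; without replicate 1 or 3 neither passed, with 1 array fewer in the test. SPI1 also did not pass without centring (0.69) or on the last spot (0.53). SIP18 had -0.023 on its first spot and 0.67, past the threshold, on its last; the cause was not tested. Over all genes, 735 rose and 1044 fell; without centring 603 fell, and with an array left out 394 to 798 rose and 610 to 1112 fell. The difference of DDR2 and HOR7 ranged from -0.13 to 0.48 with an array left out, and that of STF2 and TMA10 from -0.31 to 0.10, and was 0.065 on the first spot. With an array left out ROQ1 ranged from -0.015 to 0.84, INH1 from -0.68 to 0.034 and HOT1 from -0.40 to 0.034. Treated and untreated RNA are paired within each array, and the test of 1 group of ratios against 0 keeps that pairing. Without intensities in the deposited table, the signal of each spot over its background is not known.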
